A study of Mus musculus with 8 samples.

Results

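Genes for 9 proteins that act on or at the lipid droplet, together with Pparg, which encodes the nuclear receptor PPARγ, were examined in mouse liver with and without the liver X receptors. They were taken from the table by gene symbol. The 10 genes are Plin2, Plin3, Plin4, Plin5, Cidea, Cideb, Cidec, G0s2, Pnpla2 and Pparg, and all 10 had a row among the 25010 genes of the RNA-Seq table. Left liver lobes of 2 wild-type (WT) mice and 2 LXRDKO mice were the source of the RNA. LXRDKO mice lack LXRα (Nr1h3) and LXRβ (Nr1h2) throughout the body. All 4 mice had a C57BL/6 background, were 8 wk old and had gone 4 to 6 h without food before the livers were taken. Each liver gave 1 library of bulk tissue. The receptors were thus missing from all cell types of the tissue and not from hepatocytes alone.

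A lipid droplet is a core of triglyceride and sterol ester under a single layer of phospholipid, and its protein coat governs how fast the core is filled and emptied. Perilipins cover the surface and limit the access of lipases. CIDE proteins pass lipid from small droplets to large ones and, in hepatocytes, load lipid onto lipoproteins. Adipose triglyceride lipase (ATGL), the product of Pnpla2, starts the breakdown of the core and is blocked by G0S2. PPARγ, which drives fat storage in adipocytes and is low in normal liver, is a known activator of Cidec and of several perilipin genes. LXR and the PPARs each pair with RXR and bind DNA at repeats of the sequence AGGTCA, so their target genes are often discussed together.

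The values are normalized counts, that is, reads counted on a gene divided by a size factor of its library. The libraries held from 55772659 to 72842744 reads on genes. Nr1h3 had 5785 and 5322 normalized counts (WT) against 1712 and 1826 (LXRDKO), and Nr1h2 had 2987 and 3110 against 925.5 and 1003. Both receptors fell (limma adjusted P = 0.0147 each). These counts cover whole genes, deleted and retained exons together. Differences are given, with their standard error (SE), as log2 fold changes of LXRDKO over WT on the scale of log2(normalized count + 1), on which changes of low genes look smaller than they are. They were tested with limma over the 15578 genes whose mean reached 10 normalized counts, and P values were adjusted over all of them. With 2 livers against 2, an exact permutation test of 1 gene cannot give a two-sided P under 0.333, so the limma P values depend on a variance shared across genes.

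None of the 9 members tested passed an adjusted P of 0.05 with limma, at which 0.321% of all genes tested passed (0.186% lower and 0.135% higher in LXRDKO). Without adjustment 2 of the 9, Plin2 and Plin5, had a P under 0.05, as did 13.3% of all genes. DESeq2 and the quasi-likelihood test of edgeR, run on recovered reads, also called 0 of the members. DESeq2 called 2.03% of its genes lower and 1.56% higher, and edgeR called 0.315% in either direction. The livers of the genotypes did not overlap for 4 members. Plin2 and Plin3 were lower in both LXRDKO livers, a pattern that 23.0% of all genes showed, and Plin5 and Pnpla2 were higher in both, a pattern that 21.7% of all genes showed. The median log2 fold change of the 9 was −0.18, beside −0.0046 for all genes tested. The remaining member, Cidea, was too low to be tested.

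**Figure D1:**
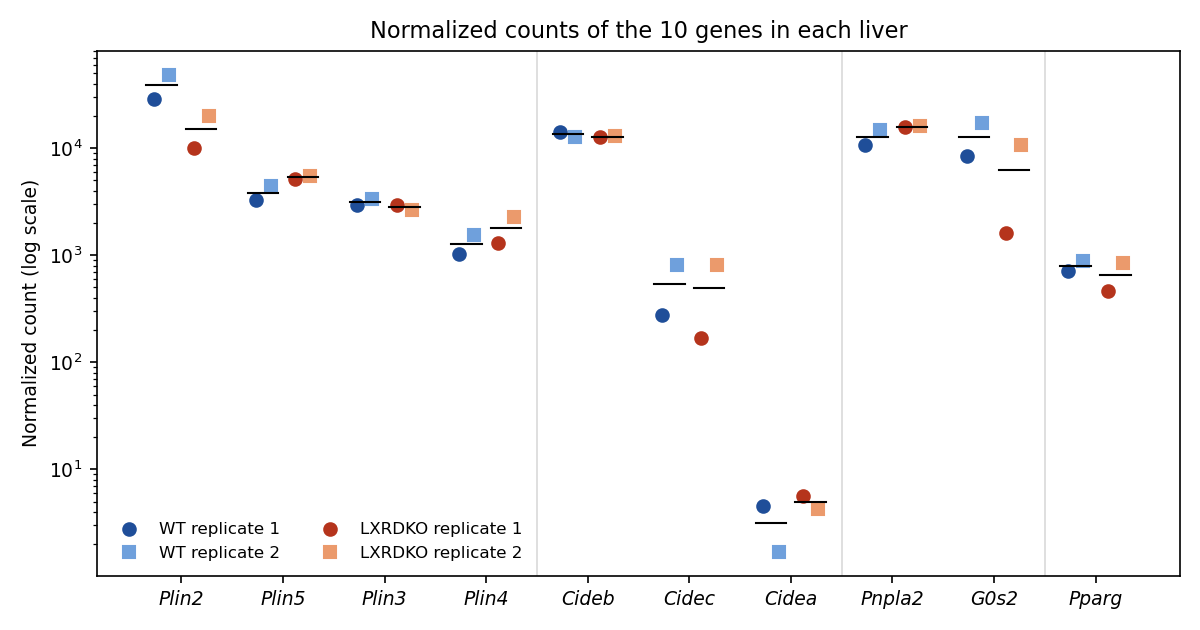
Normalized counts (log axis) of the 10 genes in each of the 4 livers, with a bar at the mean of each genotype. In LXRDKO, Plin2 and Plin3 stood below and Plin5 and Pnpla2 stood above the range of the WT livers. Of all genes tested, 23.0% stood below and 21.7% above. G0s2 and Cidec differed most between the LXRDKO livers.

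Plin2 and Plin5 were the 2 members with the smallest P values, and they differed in opposite directions. The stretch upstream of each gene is shown because both hold the hexamer AGGTCA, the element that LXR and PPAR dimers with RXR recognize in pairs. Both sequences come from the RefSeq promoter table on GRCm38.p6 (the assembly that mm10 stands for), run 5′ to 3′ on the minus strand, on which both genes lie, and contain no exon annotated in GENCODE M21. Capitals mark the hexamer, which reads TGACCT where it lies on the opposite strand. The Plin2 stretch is chr4:86670061-86670309 and the Plin5 stretch is chr17:56117597-56117798.
Plin2: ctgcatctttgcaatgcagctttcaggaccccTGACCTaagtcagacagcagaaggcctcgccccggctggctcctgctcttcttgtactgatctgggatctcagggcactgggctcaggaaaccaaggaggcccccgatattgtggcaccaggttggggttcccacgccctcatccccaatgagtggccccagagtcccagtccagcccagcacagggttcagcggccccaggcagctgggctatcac
Plin5: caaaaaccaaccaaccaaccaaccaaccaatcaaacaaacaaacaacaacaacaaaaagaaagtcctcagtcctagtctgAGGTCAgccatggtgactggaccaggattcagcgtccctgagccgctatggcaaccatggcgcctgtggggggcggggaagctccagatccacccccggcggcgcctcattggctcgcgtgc

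Distances are from the RefSeq transcription start. In Plin2 the hexamer lay 218 to 213 bases upstream on the opposite strand, and in Plin5 it lay 170 to 165 bases upstream on the strand of the gene. The RefSeq start of Plin5, 56117548, lies inside its GENCODE M21 span, which ends at 56117596, so the hexamer is nearer to the GENCODE start. Over 250 upstream bases, read on both strands, AGGTCA was found in 3 of the 9 members with a promoter window searched (Plin2, Plin5 and Pparg). It was found in 15.8% of the 27025 genes of the table and in 14.0% of its 32851 windows. A direct repeat of AGGTCA with 1 base between the copies, the arrangement usual for PPAR, was in 0.0407% of genes. The repeat with 4 bases between them, usual for LXR, was in 0.0148% of genes. None of the members had either exact repeat there. The motif CACGTG, an E-box, was in 6.86% of genes and in no member, and TATAAA was in 14.3% of genes and upstream of Cideb and Pparg. Matches of these letters are descriptions of sequence and not binding sites.

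Plin2 encodes perilipin 2, the main coat protein of hepatocyte droplets. It lies on chromosome 4 from 86648386 to 86670060. Its normalized counts were 29014 and 48664 (WT) against 10084 and 20007 (LXRDKO). The LXRDKO livers lay under the WT livers without overlap, and within each genotype replicate 2 was the higher. The mean was 38839 ± 13895 in WT and 15046 ± 7017 in LXRDKO (SD, n = 2 each). The log2 fold change was −1.40 (SE 0.38, 95% interval −2.35 to −0.46), a 2.65-fold lower level, with an unadjusted limma P of 0.0113 and an adjusted P of 0.232. DESeq2 gave an adjusted P of 0.277 and edgeR one of 0.253. In bulk tissue, fewer cells of a type and less RNA per cell cannot be told apart.

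Plin5 encodes perilipin 5, found on droplets of tissues that burn fat, where it ties droplets to mitochondria. It lies on chromosome 17 from 56111601 to 56117596. Its normalized counts were 3269 and 4410 (WT) against 5160 and 5494 (LXRDKO). The LXRDKO livers lay above the WT livers without overlap. Its log2 fold change was 0.49 (SE 0.15, 95% interval 0.10 to 0.87), a 1.40-fold higher level, with an unadjusted limma P of 0.0215 and an adjusted P of 0.293. DESeq2 gave an adjusted P of 0.164 and edgeR one of 0.304.

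Plin4 and Plin3 lie on the same strand of chromosome 17 as Plin5. Plin4, a perilipin of the early droplet best known from adipocytes, spans 56100591 to 56109803 and ends 1797 bp from Plin5 with no gene between them that codes for protein. It had 1025 and 1540 normalized counts (WT) against 1303 and 2267 (LXRDKO). The genotypes overlapped, and the log2 fold change was 0.45 (SE 0.31, 95% interval −0.32 to 1.22, limma adjusted P = 0.612). Plin3, a widely expressed perilipin that moves between cytosol and droplet, spans 56277476 to 56292873. It had 2972 and 3355 normalized counts (WT) against 2932 and 2659 (LXRDKO). The LXRDKO livers lay just below the WT livers, with a log2 fold change of −0.18 (SE 0.11, 95% interval −0.44 to 0.09, limma adjusted P = 0.558). Plin1, the perilipin that coats adipocyte droplets, had at most 1 read in any of the 4 livers.

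Per kb of exon, so that genes of different length can be compared, Plin2 was the most abundant perilipin in all 4 livers. The 4 perilipins together had 10790 and 17122 normalized counts per kb in WT and 6344 and 9424 in LXRDKO. Plin2 made up 76.6% and 80.9% of that sum in WT livers, against 45.3% and 60.5% in the LXRDKO livers. Plin5 made up 14.5% and 12.3% in WT and 39.0% and 27.9% in LXRDKO. The shares of both genes were apart between the genotypes in every liver. The mean share of Plin2 was 78.7% ± 3.09 in WT and 52.9% ± 10.7 in LXRDKO (SD, n = 2 each), a difference of −25.9 percentage points. Plin3 held between 5.18% and 12.2% of the sum and Plin4 between 1.56% and 4.16%. Shares of a sum are tied to one another, so a lower share of Plin2 raises the others without any change in their own level.

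**Figure D2:**
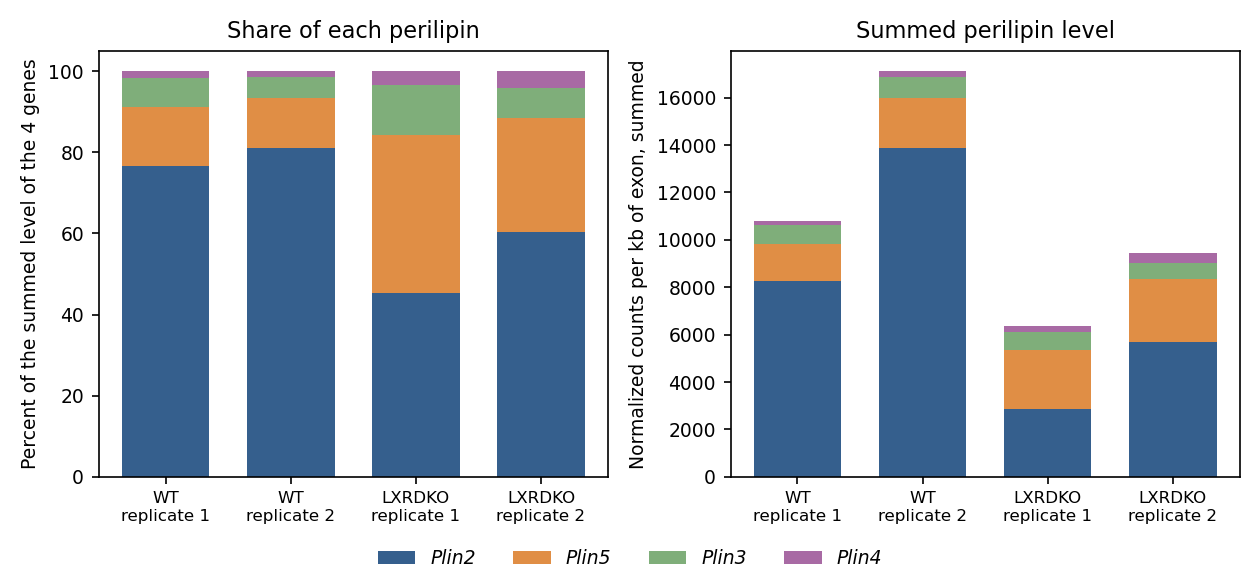
Left, the percent of the summed perilipin level (normalized counts per kb of exon) that each of 4 perilipin genes held in each liver. Right, the sum itself in normalized counts per kb, where the Plin2 segment is the one that differs most between the WT bars and the LXRDKO bars.

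The ratio of Plin5 to Plin2 was 0.113 and 0.0906 in WT livers against 0.512 and 0.275 in LXRDKO livers. It was higher in both LXRDKO livers, by 1.89 on the log2 scale (SD within genotypes 0.48), and the exact permutation P of 0.333 is the smallest that 2 against 2 can give. Both the share and this ratio were chosen after the values had been seen, so they describe these 4 livers. Leaving out each liver in turn gave between 1.44 and 2.34 for the log2 difference of the ratio.

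The 3 CIDE genes stood at very different levels. Cideb, which serves lipoprotein loading in hepatocytes, lies on chromosome 14 from 55754050 to 55758458 and had 14306 and 12691 normalized counts (WT) against 12644 and 13064 (LXRDKO). The genotypes overlapped. The log2 fold change was −0.07 (SE 0.10, 95% interval −0.32 to 0.18, limma adjusted P = 0.839), and without WT replicate 1 it was 0.018. Of the gene, 1451 bp are shared with Nop9 on the opposite strand, which had between 1627 and 1946 normalized counts, and the strand setting of the counting is not given in the sources used here.

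Cidec, known in fatty liver as a PPARγ target that enlarges droplets, lies on chromosome 6 from 113424634 to 113435760. It had 277 and 805 normalized counts (WT) against 168 and 816 (LXRDKO). Each genotype held a low liver and a high liver, and the high livers of the genotypes were alike. On the log2 scale the difference was −0.35 (SE 0.83, 95% interval −2.40 to 1.70, limma adjusted P = 0.907), an interval that holds large differences in either direction. The value was 0.42 without WT replicate 2 and 0.79 without LXRDKO replicate 1, so its sign rested on single livers.

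Cidea, a CIDE gene of brown fat that appears in fatty liver, had 4 and 2 reads (WT) against 6 and 4 (LXRDKO). It lies on chromosome 18 from 67343604 to 67367785. These counts are near the 3 reads that a count of 0 allows, so no fold is given. The ratio of Cidec to Cideb was 0.0194 and 0.0634 in WT and 0.0133 and 0.0624 in LXRDKO, and its log2 difference of −0.28 was smaller than its SD within genotypes of 1.40 (exact permutation P = 0.667, two-sided).

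Pnpla2 encodes ATGL and lies on chromosome 7 from 141455198 to 141460743. It had 10626 and 14717 normalized counts (WT) against 15703 and 16118 (LXRDKO). Again the LXRDKO livers lay above the WT livers, although WT replicate 2 was nearer to them than to WT replicate 1. The log2 fold change was 0.35 (SE 0.16, 95% interval −0.06 to 0.76, limma adjusted P = 0.442). Abhd5, whose product CGI-58 activates ATGL, had 1557 and 1636 normalized counts (WT) against 1646 and 1840 (LXRDKO), with a log2 fold change of 0.12 (SE 0.10, limma adjusted P = 0.682).

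G0s2 encodes the inhibitor of ATGL and lies on chromosome 1 from 193272161 to 193273217. It had 8381 and 17093 normalized counts (WT) against 1597 and 10797 (LXRDKO). LXRDKO replicate 1 stood far below the other 3 livers, and LXRDKO replicate 2 lay between the WT livers. Between genotypes the log2 fold change was −1.53 with an SE of 0.88 (95% interval −3.71 to 0.66, limma adjusted P = 0.537). It was larger in size than that of Plin2 with limma but not with DESeq2, which gave −1.04 for G0s2 and −1.37 for Plin2, or with edgeR, which gave −1.03 and −1.36. Without LXRDKO replicate 1 it was −0.15, and without LXRDKO replicate 2 it was −2.90. The ratio of G0s2 to Pnpla2, inhibitor to enzyme, was 0.789 and 1.16 in WT livers against 0.102 and 0.670 in LXRDKO livers. That ratio was lower in both LXRDKO livers, with a log2 difference of −1.87 (SD within genotypes 1.39, exact permutation P = 0.333, the smallest possible). G0s2 lies wholly within the span of Lamb3 on the opposite strand. Lamb3 had 376 and 490 normalized counts (WT) against 180 and 399 (LXRDKO), levels far below those of G0s2.

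Pparg lies on chromosome 6 from 115360951 to 115490399, 1925.2 kb from Cidec. It had 711 and 878 normalized counts (WT) against 458 and 848 (LXRDKO). The genotypes overlapped, with LXRDKO replicate 1 below the other 3 livers. The log2 fold change was −0.34 (SE 0.30, 95% interval −1.09 to 0.41, limma adjusted P = 0.698), and it was 0.10 without LXRDKO replicate 1. Per kb of exon Pparg stood at 269 normalized counts in WT and 221 in LXRDKO. The order of the 10 genes per kb in WT ran from G0s2 (14623) over Plin2 (11059), Cideb (9071), Pnpla2 (4196), Plin5 (1840) and Plin3 (836) to Cidec (291), Pparg (269), Plin4 (222) and Cidea (2.81). In LXRDKO Cideb stood first (8639), followed by G0s2 (7115), Pnpla2 (5268), Plin2 (4284), Plin5 (2552), Plin3 (738), Plin4 (309), Cidec (265), Pparg (221) and Cidea (4.48). In WT, Cidec, Pparg and Plin4, and likewise G0s2 and Plin2, were closer to each other than the 2 livers were for Cidec and for G0s2.

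**Figure D3:**
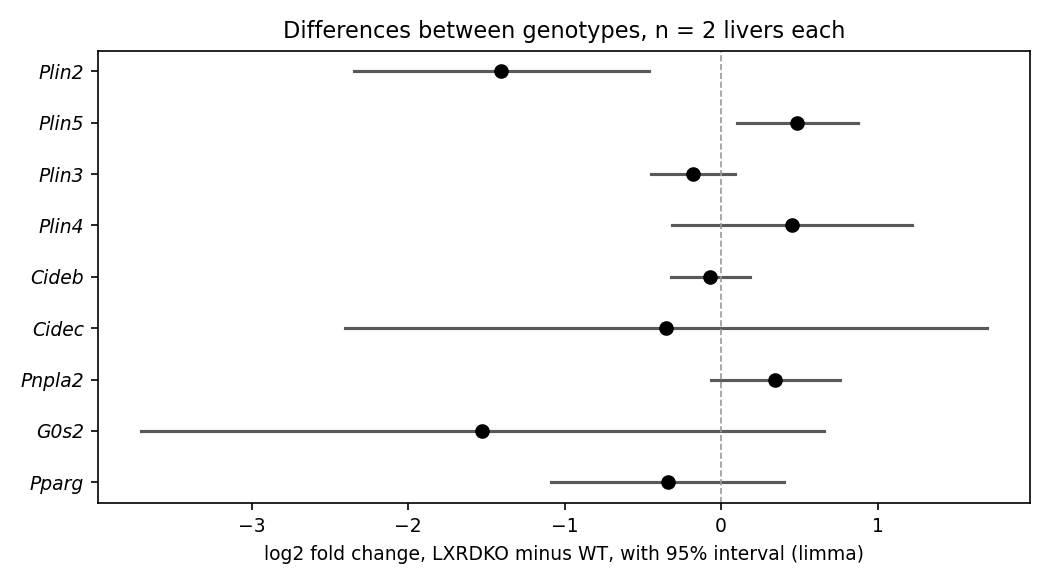
Log2 fold change of LXRDKO over WT (points) with its 95% interval from limma (lines) for the 9 members tested. The intervals of Plin2 (−2.35 to −0.46) and Plin5 (0.10 to 0.87) lie on opposite sides of 0 before adjustment for the number of genes, and those of G0s2 and Cidec are the widest.

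For several of these genes the livers of 1 genotype differed widely. The median absolute log2 difference between replicates was 0.47 in WT and 0.80 in LXRDKO over the 9 members, beside 0.18 and 0.17 over all genes tested. For G0s2 the gap was 1.03 in WT and 2.76 in LXRDKO, and 5.80% and 0.160% of all genes had a gap at least as large. For Cidec it was 1.53 and 2.27, reached by 2.18% and 0.257% of genes. Plin2 had gaps of 0.75 and 0.99, which 10.8% and 4.57% of genes reached. Plin3, Cideb, Plin5 and Pnpla2 were steady between the LXRDKO livers, where from 58.0% to 87.7% of genes differed at least as much.

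Most gaps also had the same sign in both genotypes. Of the 9 members tested, 7 were higher in replicate 2 in both genotypes, as were 24.4% of all genes tested, and the exceptions were Plin3 and Cideb. Replicate numbers name the mice and do not pair them across genotypes.

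**Figure D4:**
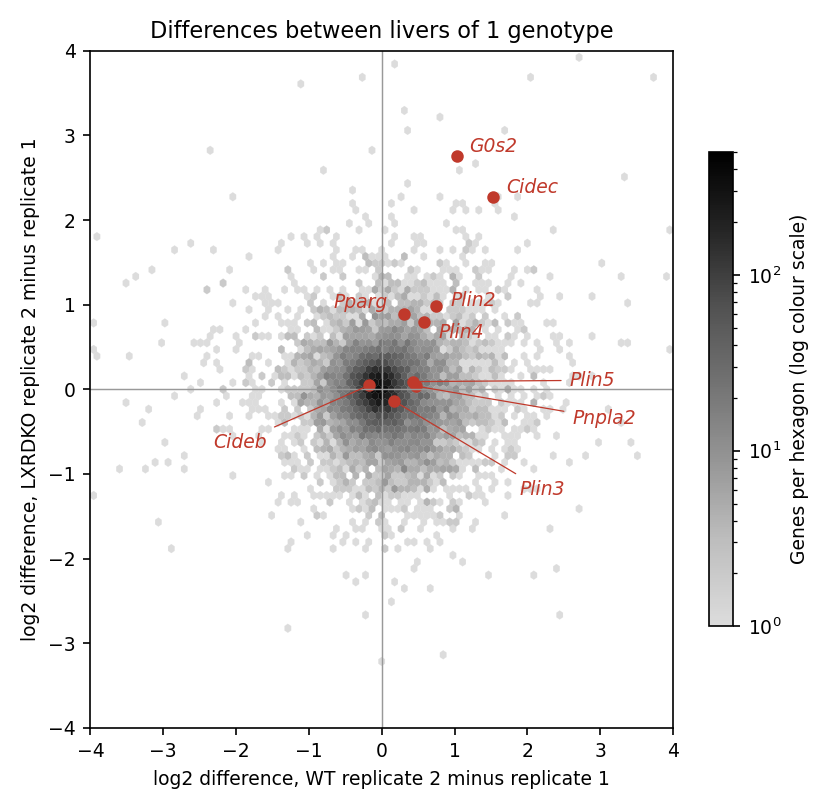
Log2 difference between replicate 2 and replicate 1 in WT (horizontal) and in LXRDKO (vertical) for 15565 genes (grey hexagons; 13 more lie outside the axes) and the 9 members tested (red). G0s2 and Cidec lie at the upper right, away from most genes, and Plin3, Plin5, Cideb and Pnpla2 lie near the centre.

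Other genes shared these profiles. Among all genes tested, those nearest to G0s2 by Euclidean distance between the 4 centred log2 values were Gm4841 (0.466), BC023105 (0.548), Aqp7 (0.616), Gm19619 (0.672) and Cfap74 (0.775). Aqp7, the glycerol channel of fat cells, had 10.3 and 35.6 normalized counts (WT) against 0.949 and 15.01 (LXRDKO). Those nearest to Plin2 were D130043K22Rik (0.161), Pde4d (0.178), 2310034O05Rik (0.262), Acsl3 (0.281) and Vash1 (0.292). Acsl3, an acyl-CoA synthetase found on growing droplets, had 1612 and 2417 normalized counts (WT) against 436.6 and 894 (LXRDKO). None of these 10 passed the adjusted threshold. They were chosen for log2 values close to those of G0s2 and Plin2, which did not pass it either. That they did not pass is thus largely set by the choice and is not a separate result.

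Among 28 other genes of lipid droplets, 27 had a row and 26 were tested. Of these 18 had a negative log2 fold change, as did 7929 of all 15578 genes tested, and 8 a positive one (median −0.23). Limma called 0 while 11 of the 26 had an unadjusted P under 0.05, as did 13.3% of all genes tested. DESeq2 called 1 higher and 3 lower, beside 1.56% and 2.03% of all its genes, and edgeR called 0. Hsd17b11, a steroid dehydrogenase of droplets, had 11151 and 12599 normalized counts (WT) against 7818 and 7388 (LXRDKO) (log2 fold change −0.64, SE 0.10, limma adjusted P = 0.102). Lipa, the lysosomal acid lipase, had a log2 fold change of −0.69 (SE 0.12, limma adjusted P = 0.127). Nsdhl, a sterol synthesis enzyme that can sit on droplets, had 5589 and 4718 normalized counts (WT) against 9179 and 15164 (LXRDKO) (log2 fold change 1.20, SE 0.24, limma adjusted P = 0.145). These 3 passed with DESeq2, as did Mgll, the monoacylglycerol lipase, with a log2 fold change of −0.56. Mgll was named after its value was seen.

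Of 22 genes known as PPARγ targets, chiefly from adipocytes, 20 were tested. A negative log2 fold change was found for 13, beside 7929 of all 15578 genes tested, and a positive one for 7 (median −0.26). Limma and edgeR called 0, and 8 of the 20 had an unadjusted P under 0.05, beside 13.3% of all genes. DESeq2 called 3, all lower, beside 2.03% of all its genes called lower. The 3 were Lpl, which releases fatty acids from lipoproteins, the fatty acid transporter Cd36, and Me1, which makes NADPH for lipid synthesis. Lpl had 1487 and 3667 normalized counts (WT) against 468.9 and 372 (LXRDKO) (log2 fold change −2.48, SE 0.41, limma adjusted P = 0.111). Cd36 had a log2 fold change of −1.18 and Me1 one of −1.41. Some stood the other way. Ucp2, a mitochondrial carrier, had 1426 and 1807 normalized counts (WT) against 2438 and 2183 (LXRDKO) (log2 fold change 0.52, limma adjusted P = 0.235). Fabp4, the fatty acid binding protein of adipocytes and macrophages, had 321.7 and 463.4 against 580.9 and 543.5 (log2 fold change 0.54, limma adjusted P = 0.349).

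PPARα, the PPAR of fasting and fatty acid oxidation, shares several targets with PPARγ, and its gene Ppara had 15122 and 12695 normalized counts (WT) against 8264 and 10337 (LXRDKO) (log2 fold change −0.58, SE 0.15, limma adjusted P = 0.214). DESeq2 gave Ppara an adjusted P of 0.0282. Of 22 PPARα targets, all tested, 21 had a negative log2 fold change (median −0.23), beside 7929 of all 15578 genes tested. Limma and edgeR called 0, and 7 of the 22 had an unadjusted P under 0.05, beside 13.3% of all genes. DESeq2 called 4 lower, beside 2.03% of all its genes. Among these 4, Fabp1, which carries fatty acids in the hepatocyte, had a log2 fold change of −1.16. The pantetheinase gene Vnn1 had one of −0.87 and Acaa1b, a thiolase of peroxisomes, one of −0.75. Of the 11 receptors and partners of the PPARs, limma and edgeR called 0 and DESeq2 called Ppara alone. An unadjusted limma P under 0.05 was reached by 4 of the 11, beside 13.3% of all genes. The corepressor gene Ncor1 had a log2 fold change of −0.33, the RXR gene Rxrg −0.53 and the coactivator gene Ppargc1a 0.39.

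For scale, all 16 lipogenic genes listed under SREBP1 and LXR, regulators such as Srebf1 among them, had a negative log2 fold change (median −1.05). Of all 15578 genes tested, 7929 had a negative one. Limma and edgeR each called 3 of the 16 and DESeq2 10, all lower. Over all genes, limma called 0.186% lower, DESeq2 2.03% lower and edgeR 0.315% in either direction. Srebf1, which encodes SREBP1, fell from 22206 and 24071 normalized counts to 3118 and 5287 (log2 fold change −2.51, SE 0.24, limma adjusted P = 0.0407). Acacb, which makes malonyl-CoA at mitochondria, fell by 2.15 on the log2 scale (limma adjusted P = 0.0255), and Gpam, the first enzyme of glycerolipid synthesis, fell by 1.07 (limma adjusted P = 0.0417). Plin2, at −1.40, stood within the range of this list, which ran from −4.15 to −0.04. Plin5, Plin4 and Pnpla2 stood above it. The lists overlap in Me1, Lipe, Plin1, Pnpla3, Acsl1, Angptl4 and Pex11a, so their counts are not independent of each other. Fabp4, Adipoq and Plin1 are also in the list of adipocyte markers below.

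**Figure D5:**
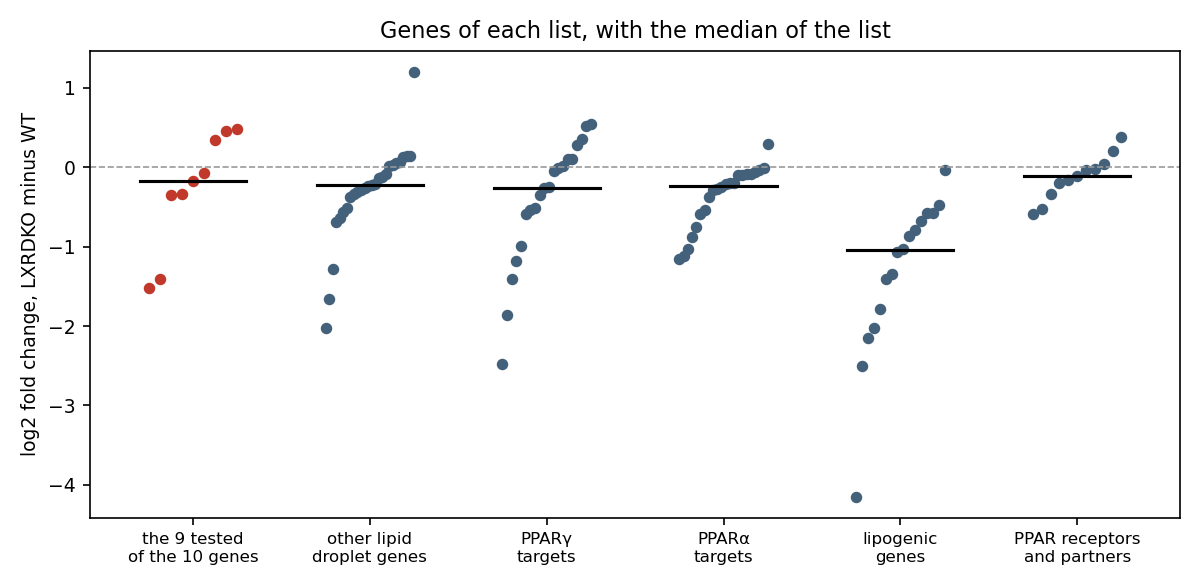
Log2 fold change of LXRDKO over WT of each tested gene (points, in order of value) in 6 groups of genes, with the median of each group (bar). The 9 members (red) spread to both sides of 0 around a median of −0.18, while the 16 lipogenic genes all lie below 0.

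Markers of other cells were checked because perilipins and CIDE genes are also fat cell genes. Of the 7 adipocyte markers with a row, 3 were at or near 0, with at most 2 reads in a liver for Adipoq, 1 for Plin1 and 1 for Retn. The other 4, Fabp4, Adrb3, Car3 and Cfd, were expressed and tested, and limma, edgeR and DESeq2 called 0. Of these 3 had a positive log2 fold change, as did 7649 of all 15578 genes tested. Fabp4 (0.54, the 1 with an unadjusted P under 0.05) and Adrb3 (0.25) were higher in LXRDKO without overlap, as were 21.7% of all genes. Cfd had a log2 fold change of −1.11 and overlapped. The list summed to 186868 and 104330 normalized counts (WT) against 169738 and 169646 (LXRDKO), mostly from Car3, and the sums overlapped. Car3 ranged from 103016 to 185512 normalized counts where Adipoq had at most 2 reads, so this sum is not a measure of adipocytes. Of the 3 striated muscle markers with a row, none was high enough to be tested. Of 6 hepatocyte markers, Alb among them, limma and edgeR called 0 and DESeq2 called 1 higher, beside 1.56% of all its genes. An unadjusted limma P under 0.05 was reached by 1 of the 6, beside 13.3% of all genes.

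The summed levels of markers of 4 other liver cell types did not overlap between the genotypes, while those of the hepatocyte markers did. Of all single genes tested, 23.0% were lower and 21.7% higher in LXRDKO without overlap. Limma called 0.186% of all genes lower and 0.135% higher, DESeq2 2.03% and 1.56%, and edgeR 0.315% in either direction. An unadjusted limma P under 0.05 was reached by 13.3%. A negative log2 fold change was found for 7929 of all 15578 genes tested and a positive one for 7649. The 8 Kupffer cell markers summed to 12016 and 13575 normalized counts (WT) against 6790 and 3979 (LXRDKO). Limma called 3 of the 8 lower, edgeR 4 and DESeq2 5, and the median log2 fold change was −2.78. Cd5l fell from 2780 and 3293 normalized counts to 11.4 and 12.9, and Timd4 had 5 and 0 reads in the LXRDKO livers. Of the 8, 7 had a negative and 1 a positive log2 fold change. Csf1r (log2 fold change 0.05) and C1qa (−0.19) overlapped between the genotypes. The 8 stellate cell markers summed to 7166 and 7995 in WT and 9278 and 9933 in LXRDKO. Reln gave the largest part, with 3109 and 2656 normalized counts (WT) against 4007 and 4130 (LXRDKO), so this sum leans on 1 gene. Of the 8, 7 had a positive and 1 a negative log2 fold change, and 4 were higher in LXRDKO without overlap. Limma and edgeR called 0, DESeq2 called 1 higher, and 2 had an unadjusted P under 0.05. The 6 sinusoidal endothelial markers summed to 10344 and 9253 in WT and 7849 and 6005 in LXRDKO. Of these, 5 had a negative log2 fold change and 1, Lyve1 (0.23), a positive one. Limma, edgeR and DESeq2 each called 1 of the 6, Kdr, which was lower. The 6 cholangiocyte markers, all with a positive log2 fold change, had 0 called by limma and edgeR, 1 by DESeq2 and 3 at an unadjusted P under 0.05, and they summed to 2084 and 3599 in WT and 4572 and 5426 in LXRDKO. Their part in the differences of Plin2, Plin5 and the other members was not tested.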

How the data were processed

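RNA-Seq of 4 livers was analysed. The 4 ATAC-Seq samples of the series were not analysed here. Per the labels and the study's methods, polyadenylated RNA was captured with the KAPA Stranded kit and read from 1 end over 50 bp, and reads were checked with FastQC, aligned to mm10 with STAR 2.6.0c and tested with DESeq2. The counting tool and annotation release are not given in the sources used here. The deposited values are a signal, counts that the authors normalized by DESeq2 size factors (0.877 and 1.18 in WT, 1.05 and 0.933 in LXRDKO). All 100% of them were whole multiples of 1 read within 0.02 reads, so reads could be recovered. Counting floors of 3 reads cover counting error only.

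Gene positions and exon lengths were taken from GENCODE M21 (GRCm38), where 24987 identifiers were found and 23 were not, and promoter sequences from RefSeq. The test, limma 3.58.1 (R 4.3.3), was applied to the log2 of the normalized count plus 1, with a variance trend and no filter beyond a mean of at least 10, at a Benjamini-Hochberg adjusted P of 0.05. The study tested counts with DESeq2, which was run here on recovered reads as an alternative (DESeq2 1.42.0), as was edgeR 4.0.16. The tests were tested on simulated data. Ratios were compared by exact permutation. Each mouse is 1 replicate.

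The members and the gene lists were chosen with earlier results of these data known. From each list the text draws on the genes called by limma or, with none called, on up to 4 genes with the smallest limma P. Plin1, Abhd5, Ppara, Fabp4 and Adipoq were added. Not all of these genes are named. Outside this rule stand Mgll, Retn, Alb, Timd4, Csf1r, C1qa, Lyve1 and genes named only where lists overlap. For the 2 members with the largest limma log2 fold changes it names the 5 genes with the nearest profiles. Some values of genes that this rule names are not reported here.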

Additional observations from a re-analysis of the deposited data

How the results depend on the processing

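The number of genes called by limma was 50. It was 25 at a minimum mean of 50 normalized counts, 1 without the variance trend, 567 with DESeq2, 2 at a threshold of 0.01 and 138 at 0.10, and the cause was not tested beyond what the thresholds set by construction. It ran from 2 to 262 when each liver was left out, the lone liver of a genotype then being assumed to vary like the others. With the replicate number as a replicate block, although same-numbered livers share only a number (correlation of their deviations over all genes 0.0031), 90 genes and 1 member were called, namely Plin2, whose log2 fold change stayed at −1.40 with an adjusted P of 0.0277 (limma). Leaving out each liver gave 0 members called. Outside these left-out fits and over 11 other settings, the 9 members tested kept their sign in 99 of 99 values. Many of these values could not differ from the main ones. Changing the gene filter, the variance estimate or the replicate block leaves the log2 fold change as it was by construction. The remaining settings reused the same livers, so the count does not test whether the signs hold in other mice. Upper-quartile scaling and scaling to the library total moved the median of all genes by 0.038 and 0.055 and gave 35 higher and 35 lower, and 23 and 23, called genes.

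With each liver left out in turn, the log2 fold change ran from −1.90 to −0.91 for Plin2, from −0.27 to −0.09 for Plin3, from 0.05 to 0.85 for Plin4, from 0.27 to 0.70 for Plin5, from −0.15 to 0.018 for Cideb, from −1.49 to 0.79 for Cidec, from −2.90 to −0.15 for G0s2, from 0.11 to 0.58 for Pnpla2 and from −0.78 to 0.10 for Pparg. Signs turned for Cideb without WT replicate 1 (0.018), for Cidec without WT replicate 2 (0.42) or LXRDKO replicate 1 (0.79), and for Pparg without LXRDKO replicate 1 (0.10). The median of the members ran from −0.27 to 0.10. The log2 difference of the ratio of G0s2 to Pnpla2 ran from −3.23 to −0.51, that of Cidec to Cideb from −1.39 to 0.83, and the difference in the Plin2 share from −33.5 to −18.3 percentage points. Cidea lay below the filter on low values, and several settings gave no value for it.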
